A study of Mus musculus with 71 samples.

Results

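The cortex of naive DYT1KI mice was compared with that of naive wild type (WT) mice by small RNA sequencing. DYT1KI is a knock-in mouse model of DYT-TOR1A dystonia, a movement disorder of dominant inheritance in which torsinA is mutated, a chaperone-like ATPase in the nuclear envelope and the lumen of the endoplasmic reticulum. The libraries were chosen by their labels as the naive cortex groups, 6 DYT1KI and 6 WT, which are 12 of the 71 libraries of the series. The series also holds striatum and cerebellum, and mice whose sciatic nerve was crushed for 1 minute at 12 weeks of age. All mice were male, the cortex was the left one, and each library came from a different numbered animal. The naive groups had no nerve crush, yet carry the same age and time entries as the injured ones, 12 weeks of age at injury and 12 weeks post injury. The allele's sequence, its zygosity and the strain background are not given in the labels. The comparison asks whether the mutation alone, without injury, goes with a different cortical miRNA profile.

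MicroRNAs are short RNAs that guide Argonaute proteins to messenger RNAs, mostly through pairing of bases 2 to 8, called the seed, and so lower the protein output of their targets. Many brain miRNAs are tied to one cell type or one condition. miR-124 and miR-9 mark neurons, miR-132 and miR-212 are transcribed together after neuronal activity through the factor CREB, and the imprinted clusters of chromosome 12 are expressed from the maternal allele in brain.

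The miRNAs on which the results turn are shown first, because several of them share a seed with a relative that was measured beside them. Of the 487 miRNAs tested, 427 had a mature sequence in RefSeq (GRCm38.p6). Sequences run 5′ to 3′ with the seed in capitals, and miR-132-3p and miR-212-3p carry the same one.
miR-132-3p: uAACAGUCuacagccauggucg
miR-212-3p: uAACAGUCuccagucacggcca
miR-222-3p and miR-221-3p, neighbours on the X chromosome, share another seed.
miR-222-3p: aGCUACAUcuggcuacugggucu
miR-221-3p: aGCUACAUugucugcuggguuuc
miR-93-5p has the seed of the miR-17 family.
miR-93-5p: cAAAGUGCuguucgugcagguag
miR-106b-5p: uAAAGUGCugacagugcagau
miR-20a-5p: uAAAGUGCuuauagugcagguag
miR-497a-5p has that of the miR-15/16 family, as does miR-322-5p.
miR-497a-5p: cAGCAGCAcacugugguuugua
miR-322-5p: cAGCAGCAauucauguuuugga
The seeds of the remaining 3 were not found in any other of the 427 tested miRNAs with a sequence.
miR-541-5p: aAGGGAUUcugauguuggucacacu
miR-664-3p: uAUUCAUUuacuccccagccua
miR-490-3p: cAACCUGGaggacuccaugcug

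In GRCm38.p6, miR-132-3p lies at chr11:75173723-75173744 and miR-212-3p at chr11:75173443-75173464, both on the plus strand and in an intron of the non-coding transcript 1700016P03Rik by GENCODE M21. miR-222-3p lies at chrX:19146901-19146923 on the minus strand, outside any gene annotated on that strand other than miRNAs. miR-93-5p lies at chr5:138165574-138165596 on the minus strand, within Mcm7, a replication helicase gene, where an exon of some transcript covers its hairpin. miR-497a-5p lies at chr11:70234730-70234751 on the plus strand, outside any annotated host. miR-541-5p lies at chr12:109742422-109742446 in an intron of the imprinted long non-coding RNA Mirg. miR-664-3p is intronic to Rab3gap2, a regulator of Rab GTPases, at chr1:185243012-185243033. miR-490-3p is intronic to Chrm2, the gene of the muscarinic M2 acetylcholine receptor, at chr6:36421800-36421821.

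Libraries held 5182284 to 8944668 counts, of which the 10 most abundant miRNAs took 56.4% to 62.2%. The mean total did not differ between genotypes beyond the spread of libraries (two-sided exact permutation test over 924 assignments, p = 0.355), nor did that top share (p = 0.199). A count of 3 corresponded to 0.335 to 0.579 CPM (a count scaled to the library total), and counting error alone makes lower levels undetectable. The CPM levels of miRNAs given here carry a further scaling factor (TMM) of 0.816 to 1.19 per library, which this floor leaves out. Neuron-enriched miRNAs summed to 183000 to 216000 CPM in WT and 193000 to 215000 CPM in DYT1KI, so the 2 ranges overlapped. As a check of the labelled tissue, the neuronal miR-124-3p and miR-9-5p were among the 10 most abundant miRNAs, and 5 miRNAs typical of cerebellum summed to 33.7 to 62.5 CPM. The neuronal pair does not tell cortex from cerebellum, where the WT means were 68200 and 44900 CPM after scaling over the 36 naive libraries. On that scale the striatum-high miR-187-3p had means of 137 CPM in WT and 161 CPM in DYT1KI cortex. In striatum its means were 5580 CPM in WT and 5180 CPM in DYT1KI. Torsin mRNA is not part of a small RNA count table, so the genotype labels could not be checked on the targeted gene. In bulk tissue, fewer cells of a type and less of an RNA per cell cannot be told apart.

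The libraries separated by replicate number more than by genotype. Each library has a biological replicate number (biol rep) in its label, and on the first principal component, with 62.2% of the variance, biol rep 1 to 3 of both genotypes lay at -12.6 to -8.00 and biol rep 4 to 6 at 5.02 to 18.6. Between these ranges 238 of 487 miRNAs (48.9%) differed at an adjusted p under 0.05 in edgeR's quasi-likelihood test, 107 higher and 131 lower in biol rep 4 to 6. miR-24-3p, a broadly expressed miRNA, shows it most plainly, with 94332 to 118774 counts in the 6 libraries of biol rep 1 to 3 and 0 in the 6 of biol rep 4 to 6. Each range holds 3 libraries of either genotype, so the split is not confounded with genotype. The labels do not say what the number ranges stand for. Their cut was taken from the split in these same counts, so the 238 describe the split and are no independent test of it.

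**Figure D1:**
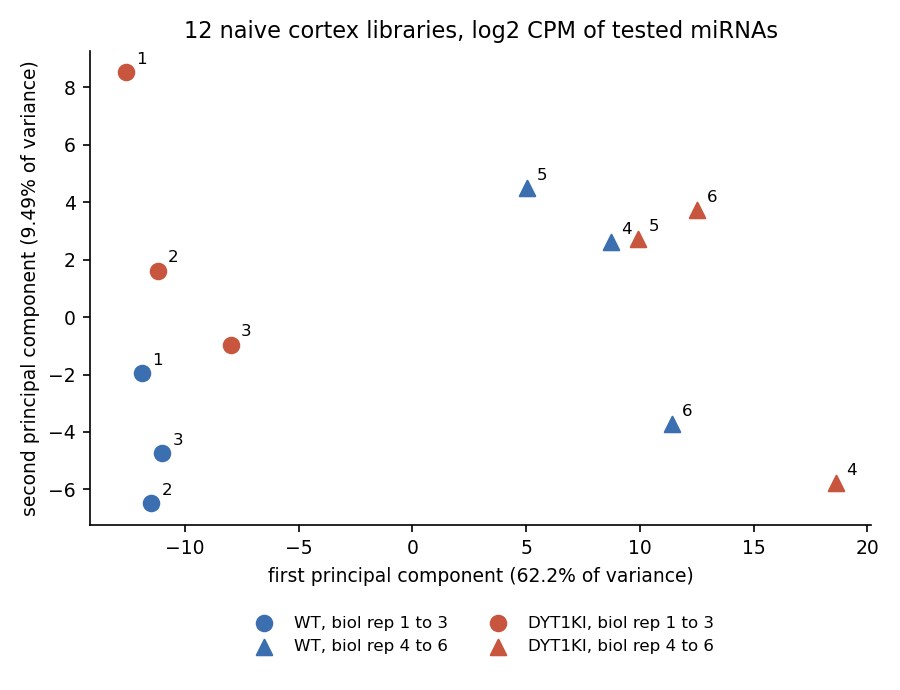
Principal components of the 12 naive cortex libraries, from log2 CPM of the tested miRNAs, with the share of variance on each axis, colour for genotype, shape for the range of biol rep and the biol rep beside each point. The horizontal axis separates biol rep 1 to 3 from 4 to 6, and both genotypes lie on both sides.

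Over all 12 libraries no miRNA passed the test between DYT1KI and WT. edgeR's quasi-likelihood test with TMM scaling called 0 of 487 miRNAs (0%) at an adjusted p under 0.05, while 14 had an unadjusted p under 0.05 and the smallest adjusted p was 0.7. DESeq2 and limma voom also called 0, with 19 and 13 miRNAs at an unadjusted p under 0.05. For none of the 487 miRNAs (0%) did all 6 DYT1KI libraries lie on one side of all 6 WT libraries. None of the 23 miRNA lists described below had a called member in this test. The difference had its median at 0.007 on the log2 scale, with 246 of 487 above 0.

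The most abundant miRNAs of cortex were alike in rank in both genotypes. let-7c-5p, a member of the let-7 family of differentiated cells, had 103000 ± 12470 CPM in WT (mean ± SD, n = 6) and 95930 ± 24990 CPM in DYT1KI. let-7a-5p, let-7f-5p, let-7g-5p, miR-128-3p, miR-124-3p, miR-26a-5p, let-7b-5p, miR-9-5p and miR-29a-3p followed in that order in both groups. miR-124-3p, the leading neuronal miRNA, had 50650 ± 7031 CPM in WT and 47940 ± 10770 CPM in DYT1KI. The 10 log2 differences lay between -0.10 and 0.29, and none of the 10 passed the test. Only miR-29a-3p among them had an unadjusted p under 0.05: its WT libraries ran from 27710 to 39080 CPM with a median of 32060, and its DYT1KI libraries from 33230 to 47430 CPM with a median of 40400. The genotypes overlapped, and the log2 difference was 0.29 ± 0.11 (estimate ± SE, adjusted p = 0.7).

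Below these, the 10 miRNAs with the smallest unadjusted p in each direction serve as examples, though none passed. On the higher side, beside the Htr2c-hosted miRNAs, miR-29a-3p and miR-34c-5p, were miR-20a-5p (0.38 ± 0.15), miR-376b-3p (0.33 ± 0.13), miR-511-3p (0.76 ± 0.28), miR-147-3p (0.56 ± 0.24) and miR-3058-5p (0.98 ± 0.41), the last 3 at means under 4 CPM in both genotypes. On the lower side miR-184-3p, known from eye and glia, had 17.6 to 26.5 CPM in WT and 10.6 to 20.8 CPM in DYT1KI, a difference of -0.49 ± 0.19 (adjusted p = 0.7). The other 9 lower ones were miR-666-5p, miR-150-5p, miR-346-5p, miR-144-3p, miR-3473b/3473e, miR-541-5p, miR-669b-5p, miR-664-3p and miR-125b-1-3p, at -1.17 to -0.27, and for each of the 20 the genotypes overlapped.

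The smallest unadjusted p-values of the comparison came from 1 mouse. miR-448-3p, miR-1264-3p and miR-1298-5p are processed from introns of Htr2c, the gene of the serotonin 2C receptor, which is strongly expressed in choroid plexus. miR-1298-5p stood at 1300 CPM in DYT1KI biol rep 1, at 10.03 to 49.04 CPM in the other 5 DYT1KI libraries and at 8.94 to 29.2 CPM in WT. The high level is thus a property of a single library. miR-448-3p had 172 CPM there and 1.88 to 8.30 CPM in the other 11 libraries, and miR-1264-3p had 272 CPM against 3.88 to 13.0 CPM. The differences over all libraries were 3.78 ± 1.30 for miR-1298-5p, 3.24 ± 1.08 for miR-448-3p and 2.81 ± 0.94 for miR-1264-3p on the log2 scale (each adjusted p = 0.7). Without that library they were 0.34, 0.38 and 0.35.

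Other epithelial miRNAs were also high in the same library. The 4 Htr2c-hosted miRNAs tested summed to 1760 CPM in it, against 16.6 to 73.4 CPM in the other 11. The 5 choroid plexus and ependyma miRNAs summed to 2520 CPM against 276 to 677 CPM. Of these, miR-204-5p, abundant in choroid plexus, had 1121 CPM against 98.2 to 347 CPM elsewhere, and miR-34c-5p of multiciliated cells had 1228 CPM against 104 to 416 CPM. miR-449a-5p, another multiciliated cell miRNA, did not follow, with 11.6 CPM against 8.26 to 13.97 CPM. The miR-200 family of epithelial cells summed to 68.9 CPM in this library and to 76.6 CPM in DYT1KI biol rep 6, against 12.5 to 29.2 CPM in the other 10. No member of these 3 lists was called, and the part of these markers in other differences was not tested.

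**Figure D2:**
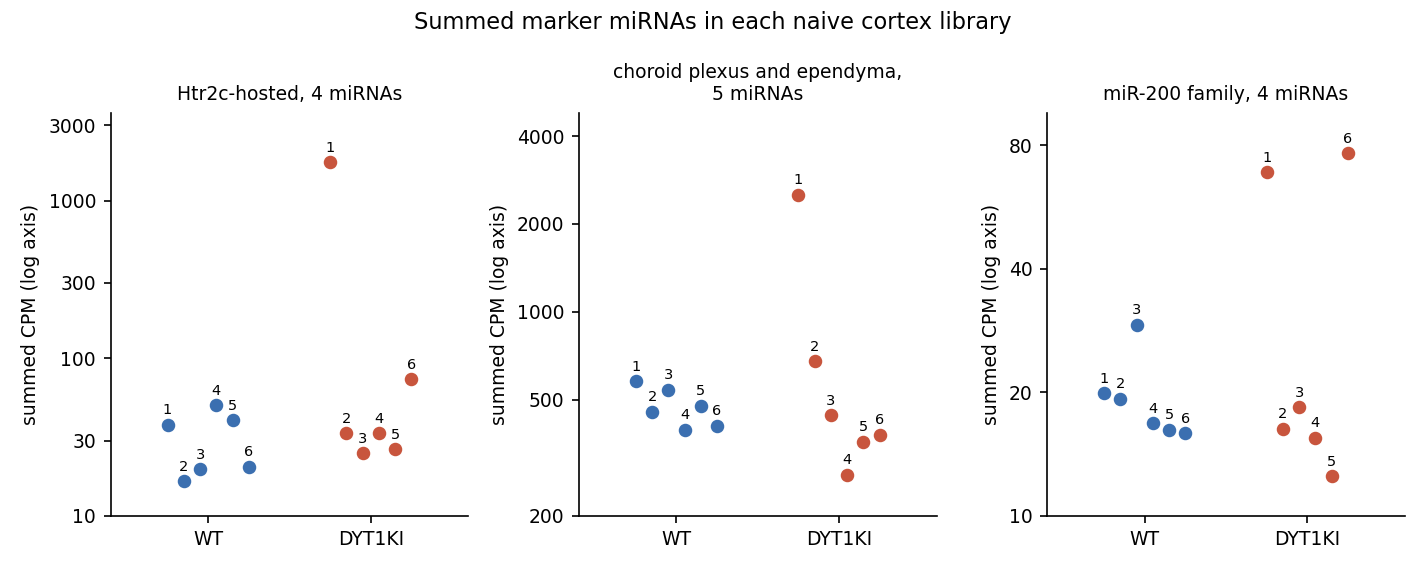
Summed CPM (log axes) of the Htr2c-hosted, the choroid plexus and ependyma, and the miR-200 family miRNAs in each naive cortex library, 1 point per library with its biol rep beside it. DYT1KI biol rep 1 stands above the other 11 libraries in the first pair of panels, and DYT1KI biol rep 1 and 6 in the miR-200 panel.

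Differences between genotypes appeared once the replicate range was a term in the fit. The main test held no such term, and the cut between the ranges follows the split seen in these same counts. In edgeR's quasi-likelihood test with that term, 9 of 487 miRNAs (1.85%) had an adjusted p under 0.05, with values of 0.0422 to 0.0485. Lower in DYT1KI were miR-132-3p, miR-541-5p, miR-664-3p, miR-135b-5p and miR-222-3p, and higher were miR-93-5p, miR-497a-5p, miR-532-5p and miR-490-3p. With the individual replicate number as a block, 3 of 487 (0.616%) were called, miR-132-3p, miR-664-3p and miR-135b-5p, all lower and each at an adjusted p of 0.0469. All 9 kept their direction in every fit run, with or without the term. Leaving out 1 library changed the number called to between 0 and 13: it was 0 without DYT1KI biol rep 2, 3 or 6 or WT biol rep 1, 2, 3, 4 or 6, 1 without WT biol rep 5, and 11, 8 and 13 without DYT1KI biol rep 1, 4 and 5. With the range term DESeq2 called 40 and upper-quartile scaling 15. With no low-count filter 0 of 888 were called (smallest adjusted p 0.0741), although the differences were close to those above, such as -0.51 for miR-132-3p and 0.39 for miR-93-5p. With the first principal component as the term in place of the range, 0 were called and the smallest adjusted p was 0.0738. The differences were then smaller, for instance -0.36 for miR-132-3p, -0.58 for miR-664-3p, 0.33 for miR-532-5p and 0.32 for miR-93-5p on the log2 scale. With the range of the animal number as the term 0 were called (smallest adjusted p 0.086), and the differences were larger, from -1.34 for miR-222-3p to 0.80 for miR-490-3p. That term is uneven between genotypes, as its low numbers are DYT1KI biol rep 1 to 3 and only biol rep 1 of WT.

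miR-132-3p, the activity-induced miRNA that promotes dendrite growth, had 2155, 2357 and 2365 CPM in WT biol rep 1 to 3 and 1105, 1423 and 1156 CPM in WT biol rep 4 to 6. In DYT1KI it had 1970, 1623 and 1595 CPM in biol rep 1 to 3 and 785, 973 and 705 CPM in biol rep 4 to 6. Within each range every DYT1KI library was below every WT library, while across the ranges the genotypes overlapped. The log2 difference with the range term was -0.49 ± 0.11, which is 0.71 of the WT level (adjusted p = 0.0422), and without the term it was -0.46 ± 0.29 (adjusted p = 0.7).

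The other products of the miR-132/212 locus had the same sign without passing the test. miR-212-3p, with the seed of miR-132-3p, had a log2 difference of -0.33 ± 0.11 with the range term (adjusted p = 0.14). miR-132-5p had -0.20 ± 0.08 and miR-212-5p -0.34 ± 0.14 (each adjusted p = 0.229). In biol rep 1 to 3 the genotypes overlapped for miR-212-3p, at 135.8 to 146.3 CPM in WT and 117.2 to 137.4 CPM in DYT1KI. In biol rep 4 to 6 they did not, at 78.1 to 89.4 CPM against 49.9 to 63.3 CPM. Of the 8 tested miRNAs in the neuronal-activity list, 1 was called lower with the range term and 0 higher, and 6 had a negative difference (median -0.15). Among all 487 tested, 5 were called lower and 4 higher, and 235 had a positive difference (median -0.008). The list holds the products of this locus, and its other members miR-134-5p, miR-485-3p, miR-485-5p and miR-501-3p lay at -0.11 to 0.05.

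miR-541-5p, from the imprinted miR-379/410 cluster, had 1155, 1122 and 1188 CPM in WT biol rep 1 to 3 and 890, 803 and 827 CPM in the matching DYT1KI libraries. In biol rep 4 to 6 it had 726.5, 720.1 and 713.6 CPM in WT and 627, 620 and 538 CPM in DYT1KI. The genotypes were apart within each range, and the difference was -0.37 ± 0.08 (adjusted p = 0.0422). The rest of its cluster did not share a direction: 20 of 55 tested members had a positive difference in the fit with the term, the median was -0.10, and no other member was called. Unadjusted p-values under 0.05 went to 13 of the 55, miR-541-5p included, 9 lower and 4 higher in DYT1KI, beside 89 of all 487, 49 lower and 40 higher. Among the lower ones were miR-411-3p at -0.50 (unadjusted p = 0.00288) and miR-496a-3p at -0.38 (unadjusted p = 0.00814), and among the higher ones miR-376b-3p at 0.33 (unadjusted p = 0.00571).

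miR-664-3p had 26, 19.41 and 25.44 CPM in WT biol rep 1 to 3 and 14.8, 13.4 and 16.9 CPM in DYT1KI biol rep 1 to 3. It had 9.73, 13.0 and 13.0 CPM in WT biol rep 4 to 6 and 5.12, 8.40 and 6.96 CPM in DYT1KI biol rep 4 to 6. Every DYT1KI library was thus below every WT library of its range. These values rest on 31 to 201 counts per library. The difference was -0.72 ± 0.15 (adjusted p = 0.0422). miR-664-5p, the other arm of the same hairpin, had 0.20 ± 0.18 (adjusted p = 0.513), so the arms did not move together.

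miR-135b-5p had the largest decrease of the 9 on the log2 scale in the fit with the range term, -0.78 ± 0.17 (adjusted p = 0.0422). Its levels were 63.5, 68.2 and 59.9 CPM in WT biol rep 1 to 3 and 46.4, 34.25 and 47.3 CPM in DYT1KI. In biol rep 4 to 6 they were 23.39, 34.98 and 23.06 CPM in WT and 9.25, 18.4 and 13.1 CPM in DYT1KI. Here too the genotypes were apart within both ranges.

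miR-222-3p, which with miR-221-3p represses the cell cycle inhibitor p27, had 214, 246 and 219 CPM in WT biol rep 1 to 3 and 204, 164 and 150 CPM in DYT1KI. For biol rep 4 to 6 the levels were 83.0, 102 and 67.4 CPM in WT and 34.7, 57.0 and 40.8 CPM in DYT1KI. The genotypes were apart within each range, narrowly so in biol rep 1 to 3. Its difference was -0.65 ± 0.16 (adjusted p = 0.0485). miR-221-3p, with the same seed and from the neighbouring hairpin, had -0.14 ± 0.08 (adjusted p = 0.338).

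miR-93-5p, from the miR-106b/25 cluster, a paralog of the miR-17-92 cluster of dividing cells, had 820, 731 and 774 CPM in WT biol rep 1 to 3 and 1029, 1139 and 1012 CPM in DYT1KI. In biol rep 4 to 6 it had 1316, 1033 and 1292 CPM in WT and 1813, 1380 and 1450 CPM in DYT1KI. Every DYT1KI library was above every WT library of its range. The difference was 0.40 ± 0.10, or 1.32 times the WT level (adjusted p = 0.0485). Of its seed relatives, miR-20a-5p had 0.38 ± 0.12 and miR-106b-5p 0.28 ± 0.14, neither called (adjusted p = 0.14 and 0.306). The remaining ones were not called either, miR-20b-5p at 0.48 ± 0.21 (adjusted p = 0.233) and miR-17-5p at 0.04 ± 0.16 (adjusted p = 0.933). Of the 13 tested members of the miR-17-92 list, 1 was called higher and 0 lower, 11 had a positive difference and the median was 0.28. Over all 487 tested miRNAs 4 were called higher and 5 lower, 235 had a positive difference and the median was -0.008.

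miR-497a-5p had 596, 480 and 570 CPM in WT biol rep 1 to 3 and 718, 784 and 875 CPM in DYT1KI. For biol rep 4 to 6 the levels were 1009, 1036 and 965 CPM in WT and 1201, 1287 and 1144 CPM in DYT1KI. No library of one genotype reached into the other within a range. The difference was 0.40 ± 0.09 (adjusted p = 0.0457). miR-195a-5p, which has the same seed and lies beside it, had -0.18 ± 0.10 (adjusted p = 0.338). miR-16-5p, the most abundant miRNA with this seed, had 29290 CPM in WT and 32480 CPM in DYT1KI, a difference of 0.14 ± 0.14 (adjusted p = 0.576). Of the 7 tested members of the miR-15/16 list, only miR-497a-5p was called, beside 9 of all 487.

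miR-532-5p had 170, 160 and 153 CPM in WT biol rep 1 to 3 and 211, 229 and 228 CPM in DYT1KI. In biol rep 4 to 6 it had 273, 240 and 250 CPM in WT and 378, 284.5 and 329 CPM in DYT1KI. It too was apart within both ranges, with a difference of 0.42 ± 0.09 (adjusted p = 0.0422).

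miR-490-3p had 17.2, 17.1 and 12.9 CPM in WT biol rep 1 to 3 and 24.6, 32.05 and 28.7 CPM in DYT1KI. For biol rep 4 to 6 the levels were 33.9, 44.7 and 31.5 CPM in WT and 41.3, 53.3 and 54.1 CPM in DYT1KI. The genotypes overlapped in the second range, by DYT1KI biol rep 4 lying under WT biol rep 5. The difference was 0.64 ± 0.14 (adjusted p = 0.0422). miR-490-5p, the other arm, had -0.006 ± 0.156 (adjusted p = 0.988).

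**Figure D3:**
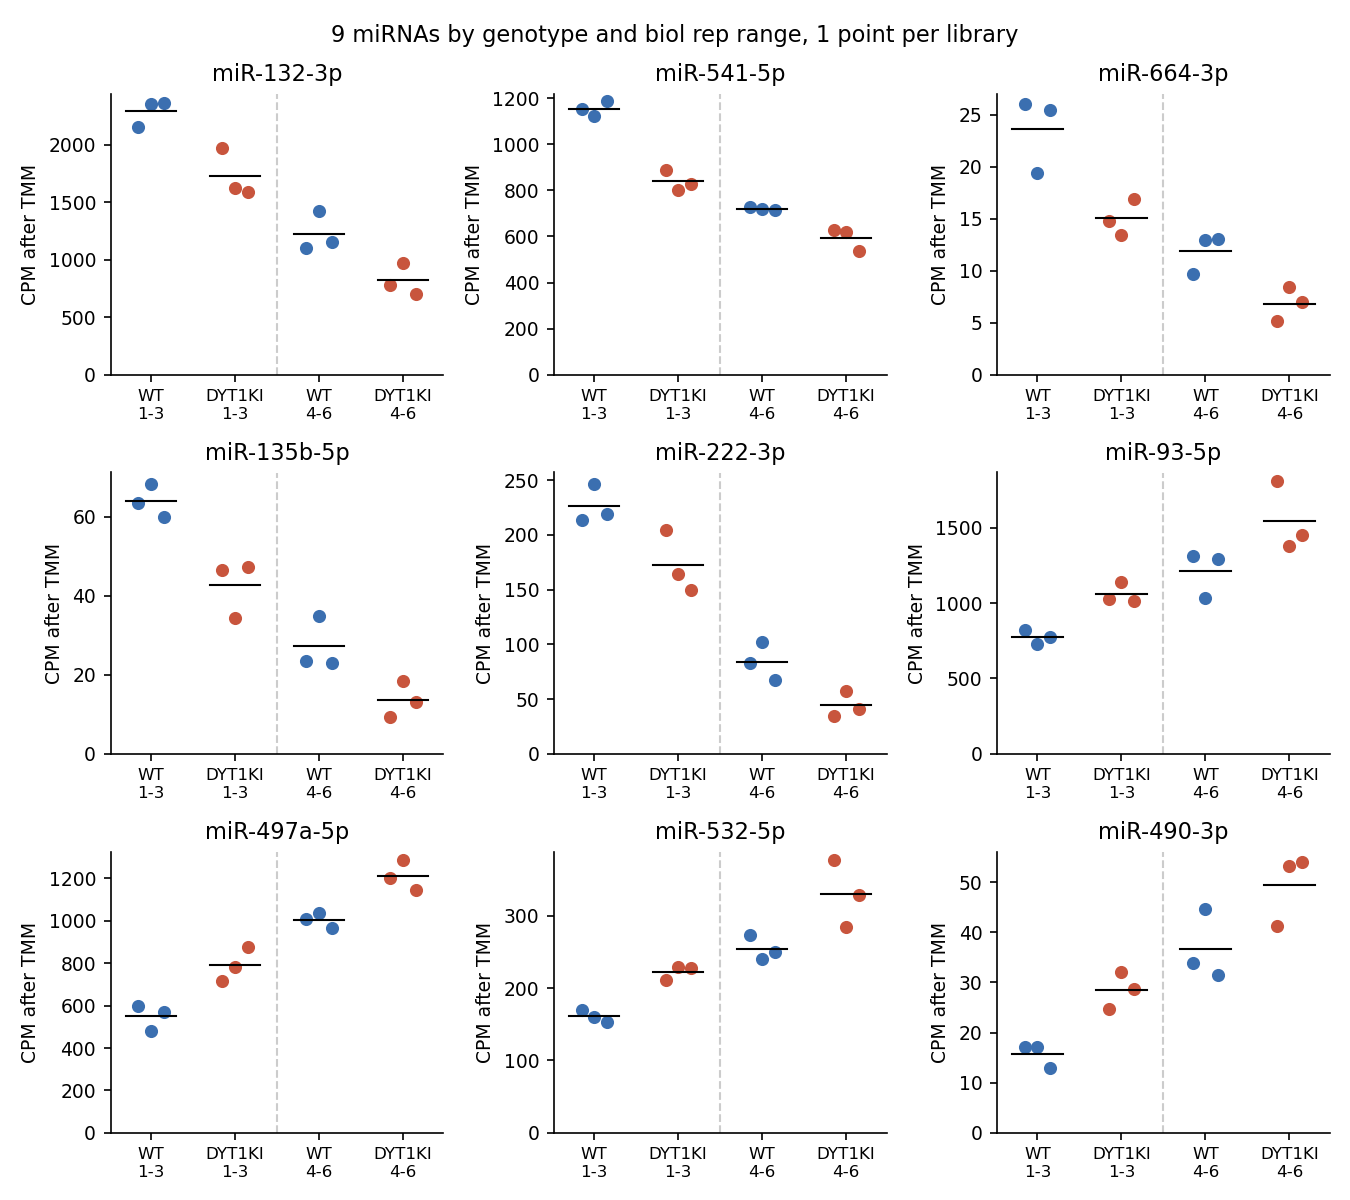
CPM after TMM scaling of the 9 miRNAs called with the range term, 1 point per library, for WT and DYT1KI in biol rep 1 to 3 and in biol rep 4 to 6, with bars at the means of 3 libraries. In 8 panels the genotypes do not overlap within either range, and in every panel the step between ranges runs the same way as the step from WT to DYT1KI.

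Genotypes that do not overlap within either range, in the same direction in both, were found for 14 of 487 miRNAs (2.87%), 9 lower and 5 higher in DYT1KI. The 14 include 8 of the 9 above, all but miR-490-3p. The others did not pass the test: miR-140-5p (adjusted p = 0.0785), miR-29b-1-5p (0.0882), miR-411-3p (0.0882) and miR-148a-3p (0.138) were lower, and miR-708-3p (0.106) and miR-322-5p (0.14) higher. miR-708-3p, whose hairpin is induced by the factor CHOP under stress of the endoplasmic reticulum, had 151 to 176 CPM in WT and 179 to 215 CPM in DYT1KI in biol rep 1 to 3, and 247 to 265 CPM against 302 to 322 CPM in biol rep 4 to 6.

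All 9 differed between genotypes in the direction in which biol rep 4 to 6 differed from biol rep 1 to 3. The 5 lower in DYT1KI were lower in biol rep 4 to 6, such as miR-132-3p by 0.99 and miR-222-3p by 1.70 on the log2 scale, and the 4 higher in DYT1KI were higher there, such as miR-490-3p by 1.01. Each of the 9 was among the 238 called between the ranges. Over all 487 miRNAs the directions matched for 361 (74.1%), and among the 89 with an unadjusted genotype p under 0.05 for 86 (96.6%). On the first principal component the DYT1KI libraries had a mean of 13.7 in biol rep 4 to 6 against 8.37 for WT, and of -10.6 against -11.4 in biol rep 1 to 3. The part of this shared axis in the genotype differences was not tested, beyond the fit with that component as a term given above.

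Within biol rep 1 to 3 alone, 6 of 503 miRNAs (1.19%) were called by edgeR's quasi-likelihood test, and within biol rep 4 to 6 alone 0 of 488 (0%), where 42 had an unadjusted p under 0.05. In the first range let-7c-5p, let-7a-5p, let-7f-5p, miR-139-5p and miR-379-3p were lower and miR-490-3p was higher in DYT1KI. let-7c-5p had 106700, 114000 and 116200 CPM in the WT libraries and 87250, 86240 and 86320 CPM in the DYT1KI libraries of that range. In biol rep 4 to 6 it had 94550, 83070 and 103700 CPM in WT and 146700, 80960 and 88130 CPM in DYT1KI. The log2 difference was -0.37 in the first range and 0.17 in the second. The sign of the second rests on DYT1KI biol rep 4, since the other DYT1KI libraries there lay under 2 of the 3 WT libraries. DYT1KI biol rep 4 held the highest let-7c-5p level of all 12 libraries and the lowest miR-124-3p level, 28140 CPM against 37440 to 59060 CPM. miR-379-3p had the same sign in both ranges, with 51.2 to 51.8 CPM in WT and 28.8 to 34.4 CPM in DYT1KI in the first.

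No miRNA of the immune and blood cell lists was called, and members lay on both sides. With the range term 0 of 11 tested microglia, leukocyte and inflammation miRNAs were called, and 4 had a positive difference (median -0.17). miR-146a-5p, a brake on NF-kB signalling, ran from 70.8 to 147 CPM in WT and from 40.8 to 108 CPM in DYT1KI, with a difference of -0.47 ± 0.13 (adjusted p = 0.0785). miR-150-5p of mature lymphocytes had -0.54 ± 0.14 (adjusted p = 0.0689) and miR-223-3p of myeloid cells -0.35 ± 0.13 (adjusted p = 0.196). On the other side miR-147-3p, induced in macrophages, had 0.57 ± 0.22 (adjusted p = 0.213) and miR-21a-3p 0.73 ± 0.36 (adjusted p = 0.3), both at means under 4 CPM. miR-155-5p, induced in inflammation, had -0.07 ± 0.18 and miR-21a-5p 0.08 ± 0.13, both with genotypes that overlapped. The summed list ran from 1320 to 1940 CPM in WT and from 970 to 1970 CPM in DYT1KI.

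All 4 erythroid miRNAs had a negative difference and 0 were called (median -0.64). miR-451a, the main miRNA of red blood cells, ran from 1.90 to 40.2 CPM in WT with a median of 10.1 and from 1.49 to 13.3 CPM in DYT1KI with a median of 2.46. miR-144-3p of the same transcript ran from 13.5 to 116 CPM in WT and from 8.59 to 37.9 CPM in DYT1KI. The highest value of both came from WT biol rep 2, and the genotypes overlapped. The oligodendrocyte list (5 tested) and the vessel wall list (5 tested) had 0 called members, and their sums ran from 2050 to 4380 CPM and from 25600 to 42300 CPM over the 12 libraries.

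**Figure D4:**
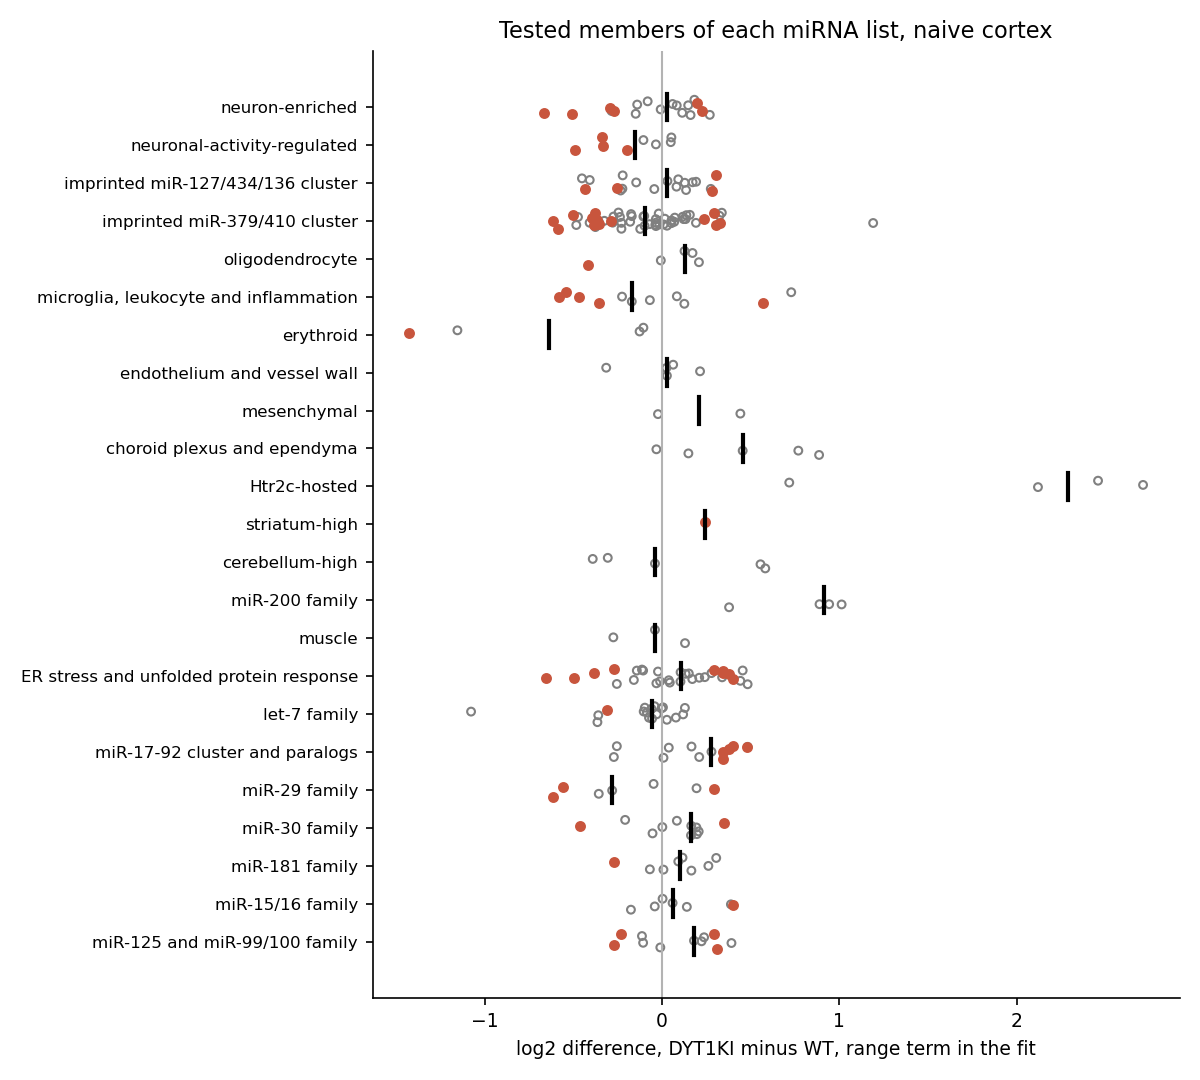
Log2 difference between DYT1KI and WT with the replicate range in the fit, for each tested member of the 23 miRNA lists, with a bar at the list's median and filled points at an unadjusted p under 0.05. The Htr2c-hosted and miR-200 members lie to the right, the miR-17-92 members mostly to the right, and the erythroid members to the left.

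TorsinA resides in the endoplasmic reticulum, and miRNAs linked to the stress response of that compartment were listed as well. Of 31 tested members, 1 was called higher and 1 lower with the range term, miR-93-5p and miR-222-3p, and 19 had a positive difference (median 0.10). Over all 487 miRNAs 4 were called higher and 5 lower, and 235 had a positive difference (median -0.008). miR-346-5p, induced by the stress factor XBP1 in human cells, had 38.0 CPM in WT and 26.3 CPM in DYT1KI on average, a difference of -0.50 ± 0.16 (adjusted p = 0.14). miR-322-5p had 91.65 to 175.5 CPM in WT and 131 to 215 CPM in DYT1KI, with 0.38 ± 0.12 (adjusted p = 0.14).

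No member of the other families was called. In the miR-29 family, expressed in mature neurons and glia, miR-29a-3p had a positive difference of 0.30 ± 0.11 (adjusted p = 0.194), while the passenger arms miR-29b-2-5p and miR-29b-1-5p had -0.56 ± 0.15 (adjusted p = 0.0785) and -0.62 ± 0.17 (adjusted p = 0.0882). Among 18 neuron-enriched miRNAs 9 had a positive difference (median 0.03) and 0 were called. miR-137-3p, an inhibitor of neuronal progenitor growth, had 0.23 ± 0.10 (adjusted p = 0.253). Of 18 tested let-7 members 5 had a positive difference (median -0.06) and 0 were called. Of 11 miR-30 members 8 were positive (median 0.16), and of 8 miR-181 members 6 (median 0.10), with 0 called in either family. The miR-125 and miR-99/100 list (11 tested), the miR-127 cluster (19), the muscle (3), mesenchymal (2) and cerebellum-high (5) lists and the striatum-high miR-187-3p also had 0 called members.

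Spread between libraries, each from a different mouse, was larger in DYT1KI for most miRNAs. The SD of log2 CPM over 6 libraries had a median of 0.394 in DYT1KI and 0.348 in WT, and was the larger in DYT1KI for 321 of 487 miRNAs (65.9%). Within the replicate ranges the medians were 0.277 and 0.234, with DYT1KI larger for 296 of 487 (60.8%). This is given as a description, since miRNAs of one library are not independent. Most of the outlying values listed further below come from DYT1KI biol rep 1 and 4, and the count without these libraries was not made.

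The same contrast was run in the other groups of the series. In injured cortex, with the range term and all 4 cortex groups in one fit, edgeR's quasi-likelihood test called 0 of 530 miRNAs between genotypes (0%). The 9 miRNAs had differences of -0.12 to 0.26 there, with the opposite sign to naive cortex for all but miR-497a-5p. miR-132-3p had 0.13 ± 0.12 in injured cortex and miR-222-3p 0.21 ± 0.16. The genotype difference changed with injury for 0 of 530 miRNAs (0%) without the term, with 20 at an unadjusted p under 0.05, and for 0 of 530 with it, where the smallest adjusted p was 0.141. The 9 were picked in naive cortex, so their change between naive and injured cortex is a description.

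Over the 3 tissues of the same naive mice, limma voom without the range term called 0 of 582 miRNAs in cortex, 13 in cerebellum and 0 in striatum. The split by range was described for cortex only. miR-24-3p, its plainest example, had a mean of 0 CPM in both striatum groups and in WT cerebellum. In DYT1KI cerebellum it had 1460 ± 3580 CPM. The range term may therefore not stand for the same split in each tissue. With the range by tissue as a term, 18 of 582 were called in cortex (3.09%), 51 in cerebellum (8.76%) and 0 in striatum (0%). miR-132-3p had 0.03 ± 0.14, miR-93-5p 0.04 ± 0.08 and miR-497a-5p -0.01 ± 0.11 in striatum. The largest of the 9 in striatum was miR-664-3p at 0.60 ± 0.26, against its cortical direction (adjusted p = 0.943). The test of the difference between cortex and striatum called 0 of 582 (0%) without the term, with 18 at an unadjusted p under 0.05, and 0 with it, where 62 had an unadjusted p under 0.05.

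Between cortex and cerebellum the genotype difference itself differed for 19 of 582 miRNAs (3.26%) in limma voom, for 3 with upper-quartile scaling and for 72 with the range term. miR-490-3p was among the 19. Its mean level was 34.5 CPM in DYT1KI and 23.2 CPM in WT cortex, and 13.1 CPM in DYT1KI and 19.2 CPM in WT cerebellum, all after scaling over the 36 naive libraries. The cortical minus the cerebellar difference was 1.24 ± 0.36 (adjusted p = 0.0461). The 8 others of the 9 were not among the 19, though with the range term 7 of the 9, chosen in cortex, were among the 72. In cerebellum with the range term miR-490-3p had a difference of -0.55 ± 0.18, and the 8 others had -0.11 to 0.46.

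**Figure D5:**
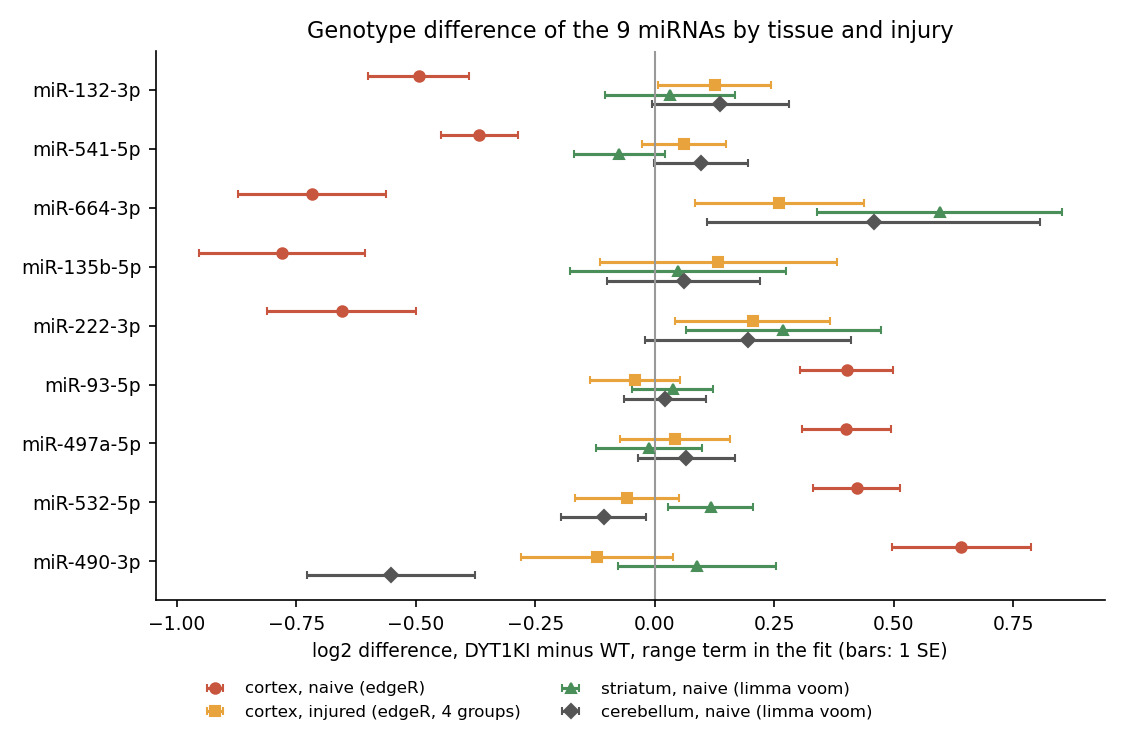
Log2 difference between DYT1KI and WT (estimate and 1 SE) of the 9 miRNAs in naive cortex, injured cortex, naive striatum and naive cerebellum, each with the replicate range in the fit. The naive cortex values lie at -0.78 to -0.37 and 0.40 to 0.64, and apart from miR-664-3p in striatum and cerebellum and miR-490-3p in cerebellum the others lie closer to 0.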

How the data were processed

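Small RNAs were turned into libraries by the QIAseq miRNA UDI library kit, after extraction of cortex with a miRNeasy micro kit, per the labels' protocols. The submitters' processing notes name featureCounts 1.6.4 and R 4.1.0 and say no more of them. Not given in the sources used here are the aligner, the build, the annotation of miRNAs and whether molecular identifiers were collapsed. As tables of raw counts per mature miRNA, the authors deposited values for 1927 miRNAs, of which 888 had a count in naive cortex. Their normalized and test columns were not used.

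Groups came from the labels. In R 4.3.3, edgeR 4.0.16 (TMM, filterByExpr with minimum count 10 and minimum total 15, robust quasi-likelihood test, Benjamini-Hochberg over all 487 tested) compared 6 DYT1KI with 6 WT libraries. SE is the size of the log2 difference over the root of F. CPM are after TMM. The replicate range (biol rep 1 to 3 or 4 to 6) as a term and the replicate number as a block were alternatives. So were other scalings, no filter, DESeq2 1.42.0, limma 3.58.1 voom and leaving out each library. The cut between the ranges is not given by the labels and follows the split seen in these counts. Some fits with the range term were chosen after seeing the data. Tissues were compared in limma voom with the animal as a random effect (correlation 0.118, or 0.0499 with the range by tissue as a term). The test was checked on simulated data. The planted changes were larger than the differences of the miRNAs called with the range term, so the check does not cover differences of that size. Same-numbered libraries deviated together over all 6 pairs (r 0.498 to 0.683); within ranges r was -0.259 to 0.37. The floors cover counting error only, while SD and SE also hold the spread between libraries.

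miRNAs are named by a rule: those called or else the 10 per direction with the smallest p, up to 3 per list, 8 always named and the 10 most abundant of WT. The miRNAs called with the range term or within a range, seed relatives and neighbours were added after their values were seen. The members and lists were chosen with earlier results of these data known.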

Additional observations from a re-analysis of the deposited data

Results flagged for a closer look

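Among 178 sets of 6 libraries of one genotype and 1 named miRNA, 17 held a library whose gap to the nearest other exceeded Dixon's 95% value. Chance gives about 1 in 20 for independent sets. Sets that share a library or a miRNA family are not independent, so that rate is no yardstick here. In DYT1KI biol rep 1 the flagged miRNAs were miR-448-3p (171.6 CPM, others 2.88 to 8.30), miR-1264-3p (272.1 CPM, others 7.88 to 13.0), miR-1298-5p (1300 CPM, others 10.03 to 49.04), miR-34c-5p (1228 CPM, others 104 to 416), miR-34b-5p (80.2 CPM, others 4.13 to 26.6) and miR-206-3p (21.2 CPM, others 14.8 to 16.8).

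DYT1KI biol rep 4 stood above the other 5 DYT1KI libraries in let-7c-5p (146700 CPM, others 80960 to 88130), let-7a-5p (112000 CPM, others 62750 to 72790), let-7f-5p (91340 CPM, others 52700 to 63920), let-7g-5p (83790 CPM, others 54200 to 61760), let-7b-5p (78150 CPM, others 36430 to 44380) and miR-128-3p (67640 CPM, others 52120 to 57650). It stood below them in miR-124-3p (28140 CPM, others 48000 to 59060). WT biol rep 5, the shallowest library, was low in let-7g-5p (39920 CPM, others 60480 to 71910) and miR-26a-5p (37110 CPM, others 49810 to 54240) and high in miR-181a-1-3p (211.2 CPM, others 135.8 to 155.8). WT biol rep 6 was high in miR-10b-5p (11.67 CPM, others 6.32 to 8.29).

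The genotype difference in cortex differed from that in cerebellum for 8 named miRNAs by limma voom's test of the difference at an adjusted p under 0.05. Over all tested miRNAs it did so for 19 of 582 (3.26%). Some of the 8 were named for their genotype values in cortex, so their number is no rate. The cortical minus the cerebellar log2 difference was 0.69 for miR-29a-3p, 0.61 for miR-20a-5p, 0.78 for miR-376b-3p and 1.24 for miR-490-3p. It was -0.99 for miR-184-3p, -0.60 for let-7c-5p, -0.62 for let-7a-5p and -0.65 for let-7b-5p.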

How the results depend on the processing

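Over the 12 libraries the count of called miRNAs stayed at 0 with all 4 cortex groups, DESeq2 size factors, upper-quartile scaling, no low-count filter, DESeq2, limma voom, within biol rep 4 to 6 and without any 1 library. It was 3 with the replicate block, 9 with the range term and 6 within biol rep 1 to 3. With the range term it was 15 with upper-quartile scaling, 40 in DESeq2, 0 with no filter, 6 with DESeq2 size factors, 8 in limma voom, 7 with 4 groups and 3 with the replicate block in its place. It was 0 with the range of animal numbers or the first principal component in its place, and 0 to 13 leaving out 1 library. The cause was not tested.

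Called list members went from 0 to 1 with the range term in the neuronal-activity, miR-379/410, miR-17-92 and miR-15/16 lists and to 2 in the ER stress list, to 1 with the replicate block in the neuronal-activity list, and within biol rep 1 to 3 to 1 in the miR-379/410 list and 3 in the let-7 family. The difference between cortex and cerebellum was called for 19 miRNAs, 3 with upper-quartile scaling and 72 with the range by tissue as a term. The injury interaction and the difference from striatum stayed at 0.

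Differences that were not called turned sign in places. Within biol rep 4 to 6 the log2 difference was -0.14 for miR-34c-5p, -0.18 for miR-338-3p, -1.07 for miR-219a-5p (-0.22 in limma voom), -0.43 for miR-34b-5p, 0.091 for miR-10a-5p, -0.081 for miR-21a-5p, 0.17 for miR-155-5p, let-7c-5p and let-7a-5p, 0.22 for let-7f-5p, 0.014 for miR-26a-5p and 0.16 for let-7b-5p. Within biol rep 1 to 3 it was 0.31 for miR-486a-3p/486b-3p, -0.10 for miR-143-3p, 0.16 for miR-145a-5p and for the joint entry of miR-133a-3p and miR-133b-3p, 0.068 for miR-206-3p, -0.26 for let-7g-5p and 0.0051 for miR-128-3p, which had 0.016 with size factors and in DESeq2. Leaving out 1 library gave -0.28 to 0.17 for miR-486a-3p/486b-3p, -0.14 to 0.039 for miR-199a-3p/199b-3p, -0.12 to 0.017 for miR-206-3p, -0.018 to 0.20 for miR-21a-5p, -0.15 to 0.040 for miR-155-5p, -0.15 to 0.039 for miR-124-3p, -0.071 to 0.078 for let-7g-5p, -0.061 to 0.027 for miR-128-3p and -0.27 to 0.0035 for let-7b-5p. At the depth of these libraries, levels under 0.335 to 0.579 CPM, before TMM scaling, were not detectable.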
